A study of Mus musculus with 16 samples.

Results

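The 7 genes described here encode the pyruvate dehydrogenase kinases (Pdk1, Pdk2, Pdk3 and Pdk4) and the pyruvate dehydrogenase phosphatases (the catalytic subunits Pdp1 and Pdp2 and the regulatory subunit Pdpr). They were taken by symbol from the deposited tables, where all 7 were found among 55278 gene symbols, and all 7 were among the 18713 genes with enough counts to be tested. The samples were whole hearts of C57BL/6J males, 8 to 12 weeks old, that had floxed Ppara alleles (Ppara-Flox) or were deficient in PPARα in cardiomyocytes (PPARα-deficient). Mice of each genotype were injected into the peritoneum with lipopolysaccharide (LPS, a bacterial endotoxin) at 5 mg/kg in phosphate buffered saline (PBS), or with PBS alone, and hearts were taken after 12 h. Each of the 4 groups had 4 libraries, 16 in all. The labels do not name the Cre driver and no group carried Cre without the deletion, so effects of the deletion and of Cre cannot be told apart. All comparisons between PBS and LPS share this 12 h time point and dose. The design text gives 4 mice per group, though the labels do not say that each library came from a separate mouse. The p-values measure the spread between these libraries.

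Pyruvate dehydrogenase is the mitochondrial enzyme complex that turns pyruvate, the end product of glycolysis, into acetyl-CoA, and so admits carbon from glucose to the citric acid cycle. The kinases switch the complex off by adding phosphate to serines of its E1 alpha subunit, and the phosphatases switch it on again by removing it. In the heart, Pdk4 is the isoform best known to follow fasting, fatty acids and the nuclear receptor PPARα, while Pdk2 is the widespread isoform that is sensitive to the levels of acetyl-CoA, NADH and pyruvate. Transcript levels say nothing of the phosphorylation of the complex, which was not measured here.

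Levels are given in CPM, estimated counts relative to library size after scaling by trimmed mean of M values (TMM), or, where genes are set against each other, in CPM per kilobase of exon. The estimated counts summed to 65569134 to 75436023 per library. Values that are multiples of 4 were over-represented among the low counts, so the total divided by 4, 16392284 to 18859006, may be nearer to the read pairs counted. On that reading Pdk3 rested on 8 to 83 read pairs per library and Pdk4 on 9597 to 88090. Fold changes are log2 values with standard errors (SE, n = 4 per group) from edgeR's quasi-likelihood model of all 16 libraries, and a gene is called changed at a Benjamini-Hochberg adjusted p under 0.05 over the 18713 genes. Ppara was at 37.4 to 59.3 CPM in Ppara-Flox PBS and 11.4 to 17.6 CPM in PPARα-deficient PBS libraries, 7.23 to 14.7 CPM in Ppara-Flox LPS and 4.25 to 11.9 CPM in PPARα-deficient LPS libraries. The genotypes were therefore separated by Ppara under PBS but overlapped after LPS. Esr1, the estrogen receptor gene, was at no more than 0.516 CPM in any Ppara-Flox library, at 2859 to 3201 CPM in PPARα-deficient PBS and at 28.3 to 152 CPM in PPARα-deficient LPS libraries. The extraction protocol in the labels mentions islets, but the islet genes Ins1, Ins2, Gcg and Sst had 0 counts in all 16 libraries, and the 7 cardiomyocyte markers were detected in every group. The column headers carry numbers that are higher for all LPS than for all PBS libraries, and LPS cannot be told apart from that numbering.

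Promoter windows from RefSeq (GRCm38.p6, 250 bases before to 50 bases after a start site) were available for 6 of the 7 genes, 8 windows in all. The 3 windows below are shown because they belong to the gene that rose most after LPS (Pdk4), the gene that fell most in Ppara-Flox hearts (Pdp2) and the second most abundant kinase (Pdk2). Each is printed 5′ to 3′ along the gene, with the E-box CACGTG in capitals.
Pdk4, chr6:5496229-5496528, minus strand: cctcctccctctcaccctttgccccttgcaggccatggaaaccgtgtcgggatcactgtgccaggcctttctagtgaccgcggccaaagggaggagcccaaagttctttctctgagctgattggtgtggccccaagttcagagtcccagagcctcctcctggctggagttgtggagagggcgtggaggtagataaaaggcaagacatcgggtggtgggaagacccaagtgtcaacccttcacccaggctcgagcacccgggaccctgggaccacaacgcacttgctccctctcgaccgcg
Pdk2, chr11:95041322-95041621, minus strand: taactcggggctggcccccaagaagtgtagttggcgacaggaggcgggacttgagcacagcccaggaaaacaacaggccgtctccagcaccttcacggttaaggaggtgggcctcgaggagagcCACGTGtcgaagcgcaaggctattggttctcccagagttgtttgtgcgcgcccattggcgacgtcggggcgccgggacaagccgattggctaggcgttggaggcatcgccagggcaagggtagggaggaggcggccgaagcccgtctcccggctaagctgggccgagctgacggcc
Pdp2, chr8:104591222-104591521, plus strand: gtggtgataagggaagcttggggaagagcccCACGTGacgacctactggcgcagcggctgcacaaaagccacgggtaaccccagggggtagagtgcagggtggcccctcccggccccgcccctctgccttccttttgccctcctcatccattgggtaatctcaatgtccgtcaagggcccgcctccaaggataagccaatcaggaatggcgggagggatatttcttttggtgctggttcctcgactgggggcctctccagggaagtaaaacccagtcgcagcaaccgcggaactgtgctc
Both strands were searched for 6 short motifs over these and all other windows, 32851 in total. The E-box CACGTG occurred in 3 of the 8 windows, at position -219 from the start site in Pdp2, -172 in Pdpr and -126 in the upstream Pdk2 window, against 7.15% of all windows. The shorter hypoxia core ACGTG, which every CACGTG also contains, occurred in addition at -53 in Pdk3, and in 19.6% of all windows. The letters AGGTCA, the nuclear receptor half-site (16.3% of all windows), its direct repeat with 1 base between the copies (0.0396%), the estrogen-related receptor site TCAAGGTCA (0.423%) and the forkhead site GTAAACA (3.65%) were in 0 of the 8 windows. A match describes letters only, and a window without one says nothing of the factor or of sites farther away.

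Per kilobase of exon, Pdk4 and Pdk2 were far above the other 5 genes in every library. Pdk4 lay between 147 and 1440 CPM per kb, Pdk2 between 109 and 176, and Pdk1 between 17.2 and 26.9. The regulatory subunit gene Pdpr lay between 5.41 and 14.5 CPM per kb, Pdp1 between 2.72 and 7.25, Pdp2 between 1.93 and 6.62, and Pdk3 between 0.183 and 1.71. Pdk1, Pdk2 and Pdk4 thus exceeded the phosphatase genes in every library, and Pdk3 was below them in every library.

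Pdk4, the kinase gene that changed most, lies on chromosome 6 (GRCm38, 5483351 to 5496309, minus strand, protein coding). In Ppara-Flox PBS libraries it stood at 878, 1131, 1157 and 2311 CPM, and after LPS at 5041, 5054, 4057 and 4114 CPM. In PPARα-deficient libraries it stood at 583, 516, 772 and 907 CPM under PBS, and at 2805, 2499, 2570 and 1307 CPM after LPS. Within each genotype all LPS libraries were above all PBS libraries, replicate 4 of Ppara-Flox PBS was the highest PBS library by far, and replicate 4 of PPARα-deficient LPS was the lowest LPS library. LPS raised Pdk4 3.34-fold in Ppara-Flox hearts (log2 fold change 1.74 ± 0.28 SE, edgeR adjusted p = 0.00011). It raised Pdk4 3.30-fold in PPARα-deficient hearts (1.72 ± 0.28 SE, edgeR adjusted p = 0.000124). The LPS effects differed by -0.01 ± 0.39 SE between genotypes (interaction, 95% interval -0.83 to 0.8, edgeR adjusted p = 1.0).

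Between genotypes the mean Pdk4 level was lower in PPARα-deficient hearts under both treatments, without passing the test over all genes. Under PBS the Ppara-Flox mean was 1369 ± 640.5 CPM (SD, n = 4) and the PPARα-deficient mean 695 ± 178 CPM, and the ranges overlapped (-0.98 ± 0.28 SE, 95% interval -1.56 to -0.4, unadjusted p = 0.0026, edgeR adjusted p = 0.276). Without Ppara-Flox PBS replicate 4 the PBS difference was -0.603. After LPS the means were 4567 ± 556 and 2295 ± 672 CPM, and all 4 PPARα-deficient libraries were below all 4 Ppara-Flox libraries (-0.99 ± 0.28 SE, 95% interval -1.58 to -0.41, unadjusted p = 0.00234, edgeR adjusted p = 0.119). The adjusted p of this LPS difference was 0.0307 without Ppara-Flox PBS replicate 4, and 0.0307 to 0.291 over the 30 alternatives. Among the PBS libraries, numbers in the column headers were below 1000 for replicates 1 and 2 and above 1000 for replicates 3 and 4 of both genotypes. The genotype difference was -0.86 in the lower and -0.97 in the higher number series (2 libraries against 2 in each, log2 CPM). In order of mean level, the 4 groups ran PPARα-deficient PBS, Ppara-Flox PBS, PPARα-deficient LPS and Ppara-Flox LPS. Only the last step separated neighbouring groups without overlap.

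**Figure D1:**
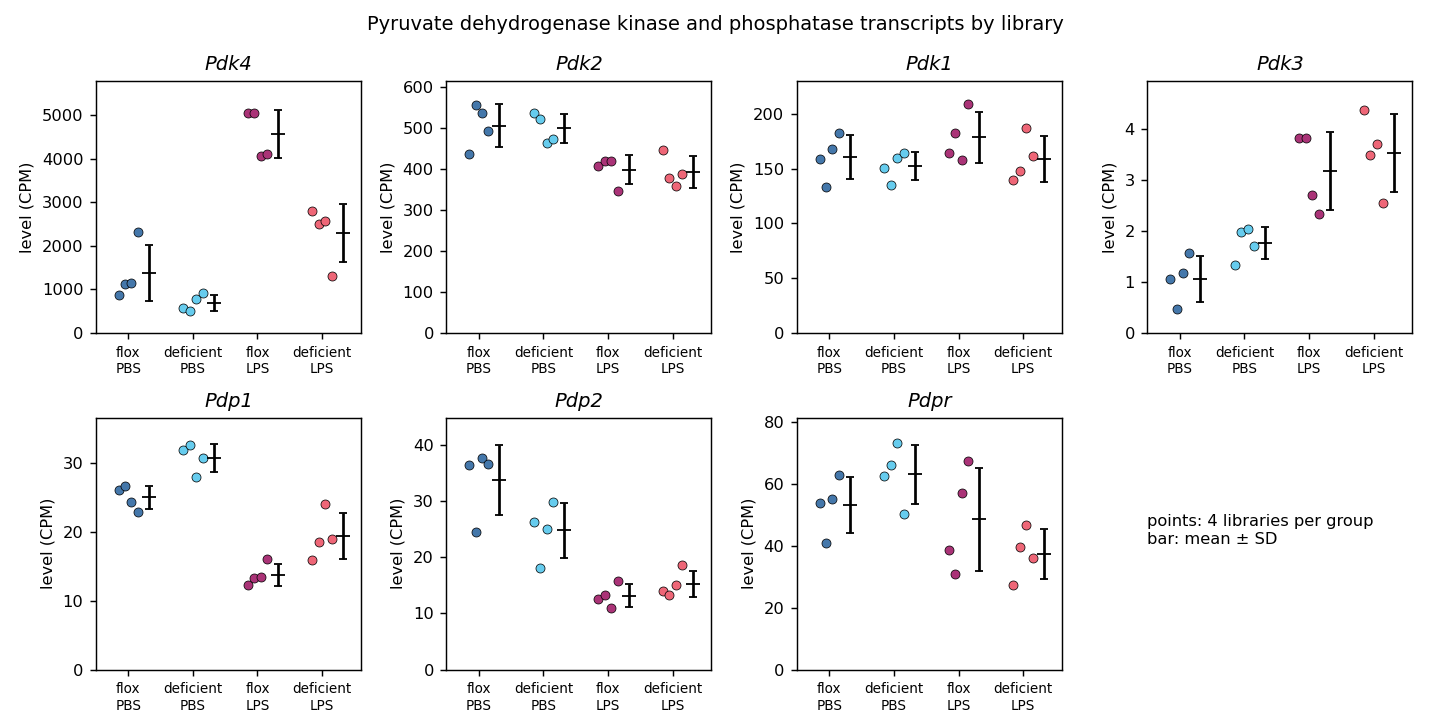
Levels of the 7 transcripts in CPM (linear y axis starting at 0), one panel per gene, by group, with each library as a point and the bar at the mean ± SD (n = 4). Pdk4 sits at 4057 to 5054 CPM in Ppara-Flox LPS libraries, above every other group, while Pdp1 and Pdp2 have their lowest group means in the same group.

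Pdk2 (chromosome 11, 95026258 to 95041354, minus strand) fell modestly after LPS in both genotypes. It stood at 436, 555, 536 and 494 CPM in Ppara-Flox PBS and at 408, 419, 420.4 and 345 CPM in Ppara-Flox LPS libraries. In PPARα-deficient libraries it stood at 537, 520.4, 464 and 473 CPM under PBS and at 446, 379, 357 and 386 CPM after LPS. All LPS libraries were below all PBS libraries within each genotype, and the genotypes overlapped under both treatments. The fall was 1.27-fold in Ppara-Flox (-0.34 ± 0.09 SE, edgeR adjusted p = 0.00818) and 1.27-fold in PPARα-deficient hearts (-0.35 ± 0.09 SE, edgeR adjusted p = 0.00807). The genotype difference had a 95% interval of -0.22 to 0.18 under PBS and of -0.22 to 0.18 after LPS on the log2 scale, intervals that do not reach the LPS change of -0.34. An antisense gene model on the opposite strand, Gm11513, reached at most 0.0886 CPM in any library.

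Pdk1 and Pdk3 behaved differently from each other. Pdk1 (chromosome 2, 71873224 to 71903858, plus strand), an isoform known as a target of the hypoxia factor HIF-1, ranged from 134 to 182 CPM in Ppara-Flox PBS and from 158 to 209 CPM in Ppara-Flox LPS libraries. It ranged from 135 to 165 CPM in PPARα-deficient PBS and from 139 to 187 CPM in PPARα-deficient LPS libraries. All 4 groups overlapped, and Pdk1 was called in none of the 5 comparisons: the LPS difference was 0.15 ± 0.12 SE (95% interval -0.1 to 0.4) in Ppara-Flox and 0.06 ± 0.12 SE (-0.18 to 0.31) in PPARα-deficient hearts. Pdk3 (chromosome X, 93764607 to 93832201, minus strand), the scarcest kinase in these hearts, stood at 0.468 to 1.57 CPM in Ppara-Flox PBS and 2.34 to 3.82 CPM in Ppara-Flox LPS libraries. Pdk3 was at 1.33 to 2.03 CPM in PPARα-deficient PBS and at 2.54 to 4.38 CPM in PPARα-deficient LPS libraries. No LPS library overlapped a PBS library. Pdk3 rose 2.97-fold in Ppara-Flox (1.57 ± 0.30 SE, edgeR adjusted p = 0.000524) and 2.0-fold in PPARα-deficient hearts (1.00 ± 0.29 SE, edgeR adjusted p = 0.0127), from and to levels that were a small part of the kinase transcripts. Its genotype difference under PBS was 0.73 ± 0.30 SE (edgeR adjusted p = 0.757), with overlapping ranges.

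Both catalytic phosphatase genes fell after LPS. Pdp1 (chromosome 4, 11958184 to 11966452, minus strand), the calcium-sensitive isoform of muscle, stood at 26.1, 26.7, 24.4 and 23.0 CPM in Ppara-Flox PBS and at 12.3, 13.4, 13.5 and 16.1 CPM in Ppara-Flox LPS libraries. The PPARα-deficient libraries had 31.9, 32.7, 28.0 and 30.8 CPM under PBS and 15.99, 18.6, 24.0 and 19.0 CPM after LPS. Every LPS library was below every PBS library of its genotype, and every PPARα-deficient PBS library was above every Ppara-Flox PBS library. Pdp1 fell 1.81-fold in Ppara-Flox (-0.86 ± 0.12 SE, edgeR adjusted p = 1.96e-05) and 1.59-fold in PPARα-deficient hearts (-0.67 ± 0.12 SE, edgeR adjusted p = 0.000217). The genotype difference was 0.30 ± 0.12 SE under PBS (unadjusted p = 0.0187, edgeR adjusted p = 0.66). After LPS it was 0.49 ± 0.12 SE (95% interval 0.24 to 0.74, unadjusted p = 0.000637), with overlapping ranges and an edgeR adjusted p of 0.0512, just outside the threshold. DESeq2 gave an adjusted p of 0.00818 for this difference, and the adjusted p ran from 0.00818 to 0.276 over the 30 alternatives, under 0.05 in 7 of them.

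Pdp2 (chromosome 8, 104591451 to 104599026, plus strand), the isoform known to respond to insulin, stood at 36.4, 24.4, 37.7 and 36.6 CPM in Ppara-Flox PBS and at 12.5, 13.3, 10.99 and 15.8 CPM in Ppara-Flox LPS libraries. In PPARα-deficient libraries it stood at 26.2, 18.1, 25.0 and 29.7 CPM under PBS and at 14.1, 13.3, 15.04 and 18.6 CPM after LPS. The Ppara-Flox groups were fully separated, while in PPARα-deficient hearts PBS replicate 2 was just below LPS replicate 4. Pdp2 fell 2.57-fold in Ppara-Flox (-1.36 ± 0.17 SE, edgeR adjusted p = 8.55e-06) and 1.62-fold in PPARα-deficient hearts (-0.70 ± 0.17 SE, edgeR adjusted p = 0.00346). The interaction was 0.66 ± 0.24 SE (95% interval 0.16 to 1.17, unadjusted p = 0.0129) and did not pass over all genes (edgeR adjusted p = 0.78). Under PBS, Pdp2 differed by -0.45 ± 0.17 SE between genotypes (unadjusted p = 0.0165, edgeR adjusted p = 0.645), and after LPS by 0.22 ± 0.17 SE. The genotypes overlapped in Pdp2 level under both treatments.

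Pdpr (chromosome 8, 111094630 to 111137074, plus strand), which lowers the sensitivity of the Pdp1 catalytic subunit to magnesium, stood at 53.9, 40.8, 55.0 and 62.7 CPM in Ppara-Flox PBS and at 38.7, 30.8, 57.1 and 67.3 CPM in Ppara-Flox LPS libraries. The PPARα-deficient libraries had 62.5, 66.2, 73.0 and 50.3 CPM under PBS and 27.2, 39.7, 46.5 and 36.0 CPM after LPS. The Ppara-Flox groups overlapped, with the LPS libraries spread over more than a 2-fold range, while the PPARα-deficient groups did not overlap. The LPS difference was -0.13 ± 0.22 SE in Ppara-Flox hearts (95% interval -0.59 to 0.33, edgeR adjusted p = 0.678). In PPARα-deficient hearts Pdpr fell 1.69-fold (-0.75 ± 0.22 SE, edgeR adjusted p = 0.0112). A difference between these responses was not shown, since the interaction was -0.62 ± 0.31 SE (edgeR adjusted p = 0.886). The gene 9430091E24Rik overlaps Pdpr on the opposite strand at 1.07 to 3.53 CPM, about 4.02% to 4.48% of the Pdpr level, and whether counting used strand is not given in the sources used here.

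Counted together, 5 of the 7 genes were called after LPS in Ppara-Flox hearts, 2 higher and 3 lower, where 39.3% of all tested genes were called (20.2% higher, 19.1% lower). In PPARα-deficient hearts 6 of 7 were called, 2 higher and 4 lower, where 37.7% of all genes were called (19.4% higher, 18.3% lower). Groups without overlap were found for 5 of 7 genes in Ppara-Flox (37.6% of all genes) and 5 of 7 in PPARα-deficient hearts (37.9%). With 7 genes and so high a background, the counts alone do not set the family apart, and its median log2 change was -0.13 and -0.35 against 0.01 for all genes in either comparison. The LPS comparisons do not share libraries with each other.

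Between genotypes 0 of 7 were called by edgeR under PBS, where 0.433% of all genes were called, and 0 of 7 by DESeq2 and limma-voom. At an unadjusted p under 0.05 there were 4 of 7 (Pdk3, Pdk4, Pdp1 and Pdp2), against 5.57% of all genes, and 1 of 7, Pdp1, had groups without overlap (3.99% of all genes). After LPS 0 of 7 were called by edgeR, where 1.23% of all genes were called, and 0 by limma-voom and 1, Pdp1, by DESeq2. At an unadjusted p under 0.05 there were 2 of 7 (Pdk4 and Pdp1), against 9.13% of all genes, and 1 of 7, Pdk4, had groups without overlap (5.32%). For the interaction 0 of 7 were called by edgeR, as were 0.0% of all genes, and 0 by DESeq2 and limma-voom. Pdp2 alone had an unadjusted p under 0.05 for the interaction, against 5.74% of all genes.

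**Figure D2:**
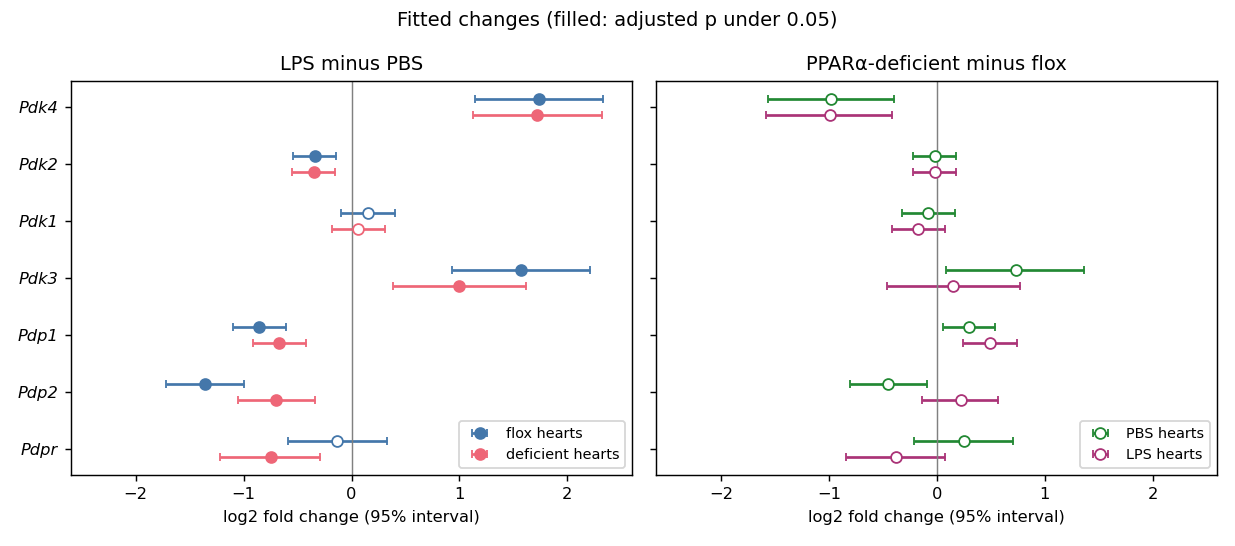
Log2 fold changes with 95% intervals from edgeR's model for the 7 genes, with LPS against PBS in each genotype and PPARα-deficient against Ppara-Flox under each treatment (x axis in log2 units, filled points have an adjusted p under 0.05). Pdk4 and Pdk3 lie right of 0 after LPS in both genotypes and Pdk2, Pdp1 and Pdp2 left of it, while no genotype comparison is filled.

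The kinase transcripts shifted towards Pdk4 after LPS. Of the 4 kinases summed per kilobase, Pdk4 made up 61.2%, 62.6%, 63.3% and 78.5% in Ppara-Flox PBS libraries and 90.5%, 90.2%, 88.2% and 89.6% in Ppara-Flox LPS libraries. In PPARα-deficient libraries it made up 46.7%, 44.6%, 56.7% and 60.1% under PBS and 83.3%, 83.6%, 84.1% and 72.1% after LPS. In PPARα-deficient PBS hearts Pdk4 was near the level of Pdk2 in replicates 1 and 2 (0.978 and 0.894 times) and above it in replicates 3 and 4 (1.5 and 1.73 times). This order depended on the gene length used. With the longest transcript as length, Pdk4 was well below Pdk2 in replicates 1 and 2 (167 against 239 and 148 against 232 CPM per kb). It was still above Pdk2 in replicates 3 and 4 (221.5 against 206 and 260 against 211). After LPS Pdk4 was the main kinase transcript in every library. The Pdk2 share went from 29.7% ± 7.45 (SD, n = 4) to 8.72% ± 0.954 in Ppara-Flox and from 42.6% ± 7.39 to 16.4% ± 4.93 in PPARα-deficient hearts. Pdk1 made up 1.60% to 5.22% of the sum by group means and Pdk3 no more than 0.234% in any library. Pdk4 per Pdk2 transcript was 2.45 ± 1.18 and 10.4 ± 1.12 in Ppara-Flox hearts under PBS and LPS, and 1.28 ± 0.404 and 5.28 ± 1.53 in PPARα-deficient hearts.

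**Figure D3:**
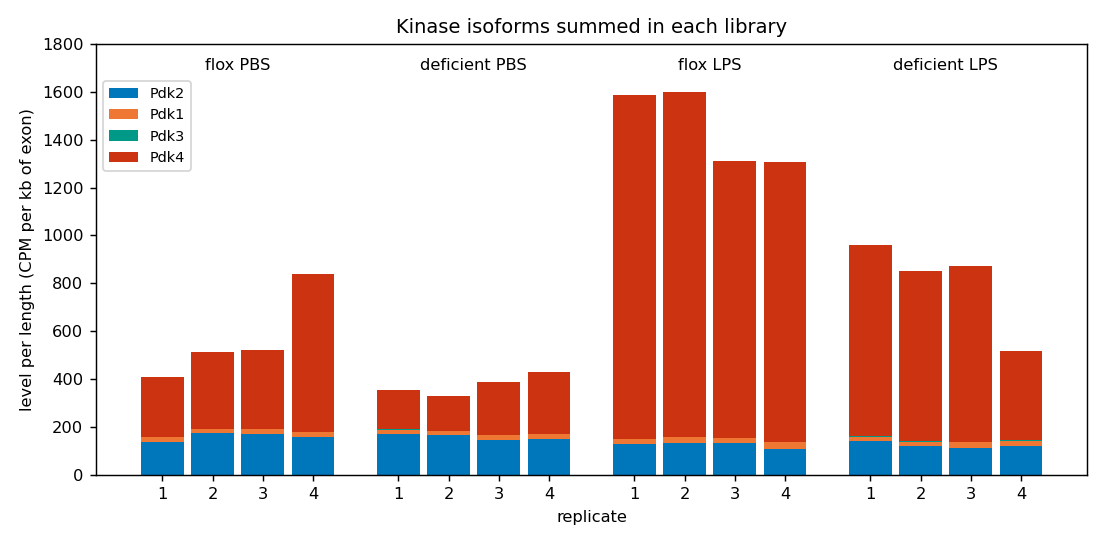
Level of each kinase isoform per kilobase of exon in each of the 16 libraries, stacked (y axis from 0 in CPM per kb, x axis replicates 1 to 4 within each group). The Pdk4 layer is higher after LPS in both genotypes, the Pdk2 layer is lower (159.7 to 126 CPM per kb by means in Ppara-Flox), and the Pdk3 layer is too thin to see.

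The summed kinase level rested on Pdk4. The sum was 571 ± 186 CPM per kb in Ppara-Flox PBS, 376 ± 43.1 in PPARα-deficient PBS, 1451 ± 163 in Ppara-Flox LPS and 799.6 ± 195 in PPARα-deficient LPS libraries. Without Pdk4 the sum was 181 ± 15.8, 178 ± 10.1, 150.0 ± 9.09 and 146 ± 10.2 CPM per kb in the same order, lower after LPS and nearly equal between genotypes. The sum of the catalytic phosphatases Pdp1 and Pdp2 was 11.5 ± 0.899, 11.2 ± 0.795, 5.37 ± 0.672 and 6.98 ± 0.9 CPM per kb. Under PBS the mean of Pdp1 was higher and that of Pdp2 lower in PPARα-deficient hearts, neither past the test, and the mean sums were close.

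The ratio of kinase to catalytic phosphatase transcripts combined these changes. It was 33.6, 50.5, 43.3 and 72.8 in Ppara-Flox PBS libraries and 323, 301, 266 and 206 in Ppara-Flox LPS libraries. In PPARα-deficient libraries it was 30.5, 31.6, 36.6 and 35.7 under PBS and 160, 132, 109 and 69.0 after LPS. The highest ratios were all in Ppara-Flox LPS libraries, and replicate 4 of PPARα-deficient LPS (69.0) lay below replicate 4 of Ppara-Flox PBS (72.8). The mean ratio was 5.48 times higher after LPS in Ppara-Flox and 3.50 times higher in PPARα-deficient hearts. These ratios are descriptions built from the genes above and were given no test.

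**Figure D4:**
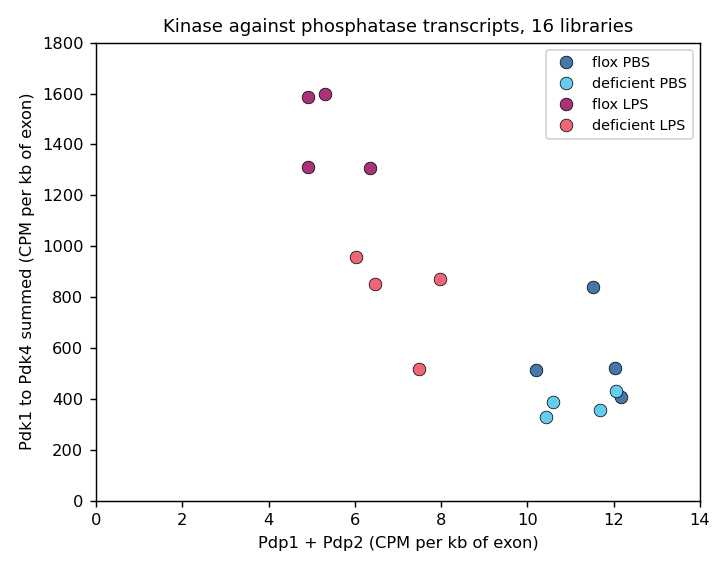
Summed kinase level (Pdk1 to Pdk4, y axis) against the summed catalytic phosphatase level (Pdp1 and Pdp2, x axis) in the 16 libraries, both in CPM per kb of exon on linear axes from 0, with each library as a point coloured by group. PBS libraries lie to the right at 10.2 to 12.2 CPM per kb of phosphatase, LPS libraries to the left at 4.92 to 7.97, and Ppara-Flox LPS libraries are the highest.

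Most subunits of the complex on which these enzymes act fell after LPS, while the E1 alpha subunit that carries the phosphates did not pass the test. Of the 6 genes listed for subunits of the complex 5 were tested, and Pdha2, the testis form of E1 alpha, had 0 counts in all libraries. After LPS 4 of 5 fell in Ppara-Flox (19.1% of all genes fell) and 4 of 5 in PPARα-deficient hearts (18.3% of all genes), and none rose. Pdhb, the E1 beta subunit, fell in Ppara-Flox hearts, from 680 ± 37.4 to 464 ± 8.11 CPM (-0.55 ± 0.08 SE, edgeR adjusted p = 3.52e-05), and in PPARα-deficient hearts, from 815 ± 29.9 to 585 ± 74.1 CPM (-0.48 ± 0.08 SE). Dlat, the E2 core, differed by -0.58 ± 0.07 SE and -0.64 ± 0.07 SE, Dld, the E3 subunit shared with other dehydrogenases, by -0.37 ± 0.07 SE and -0.31 ± 0.07 SE, and Pdhx, the E3 binding protein, by -0.50 ± 0.08 SE and -0.58 ± 0.08 SE. Pdha1, which carries the serines that the kinases modify, was at 1154 ± 64.4 and 1058 ± 19.1 CPM in Ppara-Flox hearts and did not pass (-0.12 ± 0.06 SE, edgeR adjusted p = 0.107). In PPARα-deficient hearts it did not pass either (-0.12 ± 0.06 SE, edgeR adjusted p = 0.119), but all LPS libraries lay below all PBS libraries (means of 1160 and 1066 CPM under PBS and LPS). Whether Pdha1 changed less than the other subunits was not tested. Between genotypes Pdhb was higher in PPARα-deficient hearts after LPS (0.34 ± 0.08 SE, edgeR adjusted p = 0.0496), a call close to the threshold that had an adjusted p under 0.05 in 9 of 30 alternatives, and in 1 of the 16 that left out a single library (0.00704 to 0.267 over all 30). Under PBS its difference was 0.26 ± 0.08 SE (edgeR adjusted p = 0.36), with groups that did not overlap.

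**Figure D5:**
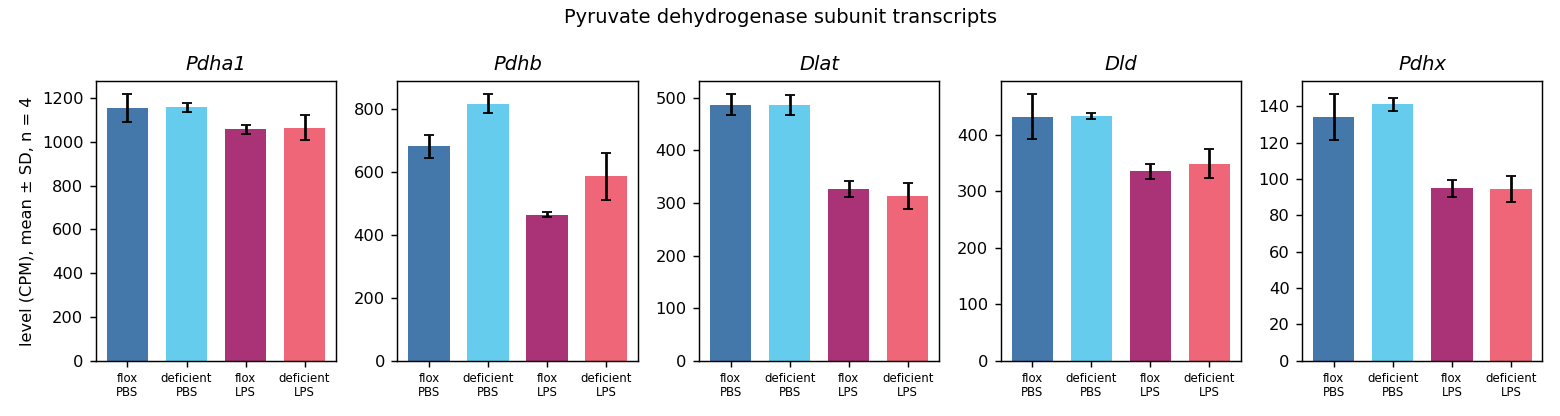
Levels of the 5 detected pyruvate dehydrogenase subunit genes in CPM (y axes from 0), by group, with bars at the mean and error bars of ± SD (n = 4). Dlat, Dld, Pdhb and Pdhx are lower in LPS than in PBS groups, and Pdha1 differs least, from 1154 to 1058 CPM in Ppara-Flox hearts.

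Marker genes of cell types moved with LPS in these whole-tissue samples, where fewer cells of a type and less RNA per cell cannot be told apart. The 7 cardiomyocyte markers summed to 56480 to 63410 CPM in Ppara-Flox PBS and 28930 to 34440 CPM in Ppara-Flox LPS libraries, and to 52250 to 59510 and 32560 to 37180 CPM in PPARα-deficient libraries, with none at 0. Of these markers 7 of 7 fell after LPS in Ppara-Flox (19.1% of all genes fell) and 6 of 7 in PPARα-deficient hearts (18.3% of all genes). The 5 smooth muscle and pericyte markers summed to 738 to 785 and 359 to 430.1 CPM in Ppara-Flox PBS and LPS libraries, and to 680 to 760.0 and 343 to 374 CPM in PPARα-deficient libraries. The 7 macrophage markers summed to 233 to 278 and 121 to 159 CPM in Ppara-Flox, and to 260 to 308 and 144 to 198 CPM in PPARα-deficient libraries. Lyz2, Csf1r and Mrc1 fell in both genotypes (Lyz2 from 108 to 23.3 CPM in Ppara-Flox), Cd68 rose in both (4.80 to 7.0 CPM in Ppara-Flox), and Adgre1, C1qa and C1qb were not called. The 7 neutrophil markers were higher in sum after LPS, at 2.94 to 3.97 and 21.7 to 47.1 CPM in Ppara-Flox, and 1.66 to 9.94 and 26.1 to 29.3 CPM in PPARα-deficient libraries. Of the 6 that were tested, 5 rose in each genotype, where 20.2% of all genes rose in Ppara-Flox and 19.4% in PPARα-deficient hearts. Ly6g was at 0 in both PBS groups. The 6 fibroblast markers (751 to 912 CPM under PBS, 679 to 917 after LPS) and the 6 endothelial markers (1116 to 1359 and 1051 to 1425 CPM) overlapped in sum, but members moved in both directions. Dcn rose and Col1a2 and Lum fell in both genotypes, and Col1a1 fell in Ppara-Flox and Pdgfra in PPARα-deficient hearts. Kdr and Tek fell in both genotypes, and Fabp4 rose in Ppara-Flox hearts. Between genotypes after LPS, 1 of 7 cardiomyocyte markers, Tnnt2, was higher in PPARα-deficient hearts (0.33 ± 0.08 SE, edgeR adjusted p = 0.0465), where 1.23% of all genes were called. By edgeR, 3 of the 7 had an unadjusted p under 0.05, against 9.13% of all genes, and the median log2 difference of the 7 was 0.14. In that comparison 3 of 6 endothelial markers (Pecam1, Cdh5 and Kdr) lay wholly below the Ppara-Flox libraries without passing. Of all genes, 5.32% had groups without overlap there, in either direction. Of the macrophage markers 4 of 7 (Adgre1, Cd68, Mrc1 and C1qb) had higher means with an unadjusted p under 0.05, against 9.13% of all genes. The part of these shifts in the values of the kinase, phosphatase and subunit genes was not tested.

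Of 10 other genes that supply or use pyruvate, 3 rose and 5 fell after LPS in each genotype, where 39.3% of all genes were called in Ppara-Flox and 37.7% in PPARα-deficient hearts. The rise of Ldha, a lactate dehydrogenase subunit, in Ppara-Flox hearts (0.22 ± 0.08 SE, edgeR adjusted p = 0.0437) had an adjusted p under 0.05 in 13 of 30 alternatives. Among the 16 that left out a single library, this held in 5. DESeq2 gave 2 of the 10 genes higher in Ppara-Flox hearts. Slc16a3, the lactate exporter MCT4, rose in Ppara-Flox hearts, from 2.43 ± 0.631 to 20.0 ± 2.80 CPM (3.04 ± 0.19 SE, edgeR adjusted p = 6.54e-09), and in PPARα-deficient hearts, from 2.13 ± 0.436 to 22.0 ± 2.48 CPM (3.37 ± 0.19 SE). Slc16a1, a more abundant gene of the same family, fell in Ppara-Flox hearts, from 274 ± 26.6 to 157 ± 29.8 CPM (-0.81 ± 0.13 SE, edgeR adjusted p = 0.000155). In PPARα-deficient hearts Slc16a1 fell from 286 ± 14.4 to 173 ± 31.0 CPM (-0.73 ± 0.13 SE, edgeR adjusted p = 0.000413). Pcx, pyruvate carboxylase, which turns pyruvate into oxaloacetate, rose by 0.95 ± 0.09 SE and 1.06 ± 0.09 SE on the log2 scale. The alanine transaminase genes fell in Ppara-Flox and PPARα-deficient hearts, Gpt at -0.63 ± 0.09 SE and -0.65 ± 0.09 SE and Gpt2 at -0.83 ± 0.14 SE and -1.03 ± 0.14 SE. Between genotypes 0 of the 10 passed by edgeR or limma-voom under either treatment, and DESeq2 called 1, Pcx, after LPS. At an unadjusted p under 0.05 by edgeR there was 1 of 10 under PBS (5.57% of all genes) and 1 of 10 after LPS (9.13%). By edgeR, the Pcx difference was 0.22 ± 0.09 SE under PBS (adjusted p = 0.677) and 0.33 ± 0.09 SE after LPS (adjusted p = 0.0921).

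Of 11 genes for lipoate and thiamine cofactors 3 rose and 2 fell in Ppara-Flox hearts after LPS, and 1 rose and 4 fell in PPARα-deficient hearts, 5 of 11 in each and near the share over all genes (39.3% and 37.7%). The rise of Lias, lipoic acid synthetase, in Ppara-Flox hearts (0.28 ± 0.10 SE, edgeR adjusted p = 0.0425) had an adjusted p under 0.05 in 14 of 30 alternatives. Among the 16 that left out a single library, this held in 6. Lipt2, a lipoyl transferase, rose by 0.71 ± 0.19 SE in Ppara-Flox and 0.55 ± 0.19 SE in PPARα-deficient hearts on the log2 scale. The latter call was lost without PPARα-deficient PBS replicate 3 or 4 or LPS replicate 1 or 4 (adjusted p up to 0.107 over the 30 alternatives). Iba57, an iron-sulfur assembly factor needed for lipoate synthesis, was at 28.4 to 39.3 CPM in Ppara-Flox LPS and 16.9 to 23.8 CPM in PPARα-deficient LPS libraries, which do not overlap (-0.71 ± 0.14 SE, edgeR adjusted p = 0.0109). The adjusted p of this Iba57 difference was under 0.05 in 29 of 30 alternatives, the exception being without Ppara-Flox LPS replicate 2 (0.052). It did not pass the threshold of 0.01 or the 2-fold minimum. Under PBS the Iba57 difference was -0.52 ± 0.14 SE (edgeR adjusted p = 0.191), with groups that did not overlap, and DESeq2 called it. Iba57 rose after LPS in Ppara-Flox (0.51 ± 0.14 SE, edgeR adjusted p = 0.00629) and was not called in PPARα-deficient hearts (0.32 ± 0.14 SE, edgeR adjusted p = 0.0769). A difference between these responses was not shown (interaction -0.19 ± 0.19 SE, edgeR adjusted p = 0.999). For comparison, the sister system of branched-chain ketoacid dehydrogenase has a kinase, Bckdk, and a phosphatase, Ppm1k. Ppm1k fell after LPS in Ppara-Flox (-0.75 ± 0.22 SE, edgeR adjusted p = 0.0116) and PPARα-deficient hearts (-0.72 ± 0.22 SE, edgeR adjusted p = 0.0159), with overlapping ranges. The call in PPARα-deficient hearts was lost without LPS replicate 1 or 2 (adjusted p up to 0.0539). Bckdk was not called in either (-0.11 ± 0.09 SE and -0.13 ± 0.09 SE).

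Among 15 transcription regulators known to act on Pdk genes, 2 rose and 9 fell after LPS in Ppara-Flox hearts, and 2 rose and 7 fell in PPARα-deficient hearts, where 39.3% and 37.7% of all genes were called. The 9 include E2f1 (-1.05 ± 0.39 SE, edgeR adjusted p = 0.0397), and limma-voom gave 8. E2f1 was scarce, at means of 1.05 and 0.506 CPM in Ppara-Flox PBS and LPS libraries, with overlapping ranges. Its adjusted p was under 0.05 in 21 of the 29 alternatives with a value (up to 0.129). Among single libraries left out, the call was lost without Ppara-Flox PBS replicate 2 or 4 or LPS replicate 2 or 3. The 7 include Ppara (-0.87 ± 0.27 SE, edgeR adjusted p = 0.0188), whose call was lost without PPARα-deficient PBS replicate 2 or LPS replicate 1 or 2 (adjusted p up to 0.06). Ppargc1a, the coactivator PGC-1α, fell by 3.81 (± 0.38 SE) on the log2 scale in Ppara-Flox and by 2.79 (± 0.36 SE) in PPARα-deficient hearts, where it averaged 28.4 ± 8.79 and 61.7 ± 37.5 CPM after LPS. The estrogen-related receptor genes fell too, with Esrrg at -2.26 ± 0.19 SE and -2.17 ± 0.19 SE and Esrra at -1.23 ± 0.15 SE and -1.06 ± 0.15 SE. Hif1a, encoding the hypoxia factor HIF-1α, rose by 1.38 ± 0.14 SE in Ppara-Flox and 0.82 ± 0.14 SE in PPARα-deficient hearts. Ppara fell in Ppara-Flox hearts from 50.2 ± 9.86 to 11.3 ± 3.31 CPM (-2.15 ± 0.28 SE, edgeR adjusted p = 1.25e-05), in the same libraries in which Pdk4 rose. Under PBS Ppara was the only regulator called between genotypes (-1.79 ± 0.28 SE, edgeR adjusted p = 0.00287). After LPS 0 of 15 were called between genotypes by edgeR, DESeq2 or limma-voom. By edgeR, 5 of 15 had an unadjusted p under 0.05 there, against 9.13% of all genes. Ppargc1a, Klf15 and E2f1 were higher and Srebf1 and Foxo1 lower in PPARα-deficient hearts. The same held for 3 of 15 under PBS (Ppara, Hif1a and Srebf1, against 5.57%) and 3 of 15 for the interaction (Ppara, Ppargc1a and Hif1a, against 5.74%).

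For each of the 7 genes the genes of most similar level across the 16 libraries were found by Pearson correlation of log2 CPM among 13446 genes with a mean of at least 1 CPM. The libraries share treatment and genotype, so these values describe group patterns and were given no p. Nearest to Pdk4 were Mettl9 (r = 0.953) and Tmed5 (r = 0.942). Tmed5 stood at 24.4 ± 4.21, 17.6 ± 2.77, 77.5 ± 13.6 and 32.6 ± 4.72 CPM in Ppara-Flox PBS, PPARα-deficient PBS, Ppara-Flox LPS and PPARα-deficient LPS libraries, in the same order of group means as Pdk4. Nearest to Pdp1 was Pdhb (r = 0.970), a subunit of the complex that Pdp1 acts on, followed by Cdh13 (r = 0.964) and Stk39 (r = 0.961). Nearest to Pdk2 were Uqcrc1 (r = 0.961), a subunit of respiratory complex III, Fam234a (r = 0.946) and Ndufs7 (r = 0.943), a subunit of complex I. Dusp7 (r = 0.953), Zfp11 and Mylk were nearest to Pdp2, and Ankrd17 (r = 0.967), Kat6a and Ankhd1 to Pdpr. The scarcer Pdk3 was nearest to Setdb2 (r = 0.919), Donson and Spg21, and Pdk1, which differed least between groups, to Zfp97 (r = 0.890), Ramac and Yy1.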

How the data were processed

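The authors deposited estimated counts of reads for each gene symbol, as whole numbers, made from the reads before deposit and not scaled between samples. Tools listed in the submitters' processing notes are StringTie 1.3.3b, HISAT, fastp 0.23.2 and DESeq2 1.30.1, with the build GRCm38. The counter, the annotation and the strand setting are not given in the sources used here. Libraries were made with a stranded kit, per the labels' protocols. Of 55421 lines, 27 with symbols turned into dates were left out (0.0644% to 0.0861% of counts) and 116 lines with repeated symbols were summed.

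Genes were kept by filterByExpr (18713), scaled by TMM and fitted as 4 group means over 16 libraries with edgeR 4.0.16 (glmQLFit, glmQLFTest) in R 4.3.3. The 5 comparisons were LPS in each genotype, genotype under each treatment and their interaction. The SE is the log2 fold change divided by the root of F. The model was also run on simulated data, with changes in the Ppara-Flox LPS group only and in far fewer genes than were called here. Its outcome is not reported here. Lengths are merged exons of GENCODE vM21 (GRCm38). Tables and figures used Python 3.11.15, pandas 2.3.3, numpy 2.4.6 and matplotlib 3.10.9.

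The 7 genes and all gene lists were chosen with earlier results of these data known. The naming rule took the 7 genes, the subunit list, up to 3 called genes with the smallest adjusted p per other list and comparison (1 with the smallest p where none was called), and the 3 most similar genes per member. The text leaves out some of these, and a few results are not reported here. Ppara and Esr1 served as a label check. Same-numbered libraries were not paired: of 24 same-number pairs 8 had a correlation of deviations above 0.1 (median 0.03), and the labels tie the numbers to nothing.

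Alternatives were RLE and upper-quartile factors, DESeq2 1.42.0, limma-voom (limma 3.58.1), no filter, a stricter filter (1 CPM in 8 libraries), a threshold of 0.01, a 2-fold minimum, only the 8 libraries compared, a replicate block, counts divided by 4, longest transcript lengths and leaving out each library. Chosen after seeing the data were bias-adjusted deviances, the number series of the PBS libraries as a term, and leaving out 2 LPS libraries together.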

Additional observations from a re-analysis of the deposited data

Results flagged for a closer look

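Of 28 groups of 4 libraries (7 genes in 4 groups), 2 held a library that stood apart by Dixon's criterion, and chance alone flags about 5% of groups. In Ppara-Flox LPS hearts, replicate 4 had 345 CPM of Pdk2 against 408 to 420.4 CPM in the others, a gap of 0.835 of the group's range. Without it Pdk2 still fell after LPS (log2 fold change -0.285, edgeR adjusted p = 0.0292). In Ppara-Flox PBS hearts, replicate 2 had 24.4 CPM of Pdp2 against 36.4 to 37.7 CPM in the others, a gap of 0.902 of the range. Without it Pdp2 fell by 1.49 after LPS on the log2 scale, and its difference between genotypes under PBS was -0.574 (edgeR adjusted p = 0.281).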

How the results depend on the processing

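The calls after LPS (Pdk4, Pdk3, Pdk2, Pdp1 and Pdp2 in both genotypes, Pdpr in PPARα-deficient hearts) had an adjusted p under 0.05 in all 30 alternatives. Here and in every such count, the threshold of 0.01 and the 2-fold minimum reuse the adjusted p of the main fit, which cannot differ there. A 2-fold minimum left 3 genes called after LPS in Ppara-Flox and 2 in PPARα-deficient hearts. A threshold of 0.01 left 4 in PPARα-deficient hearts, without Pdk3 (0.0127) and Pdpr (0.0112). Between genotypes after LPS the count of 0 became 1 with upper-quartile factors, DESeq2, the stricter filter, or 2 LPS libraries left out together, and 2 with the number series as a term. It ranged from 0 to 1 when single libraries were left out, with Pdk4 called without Ppara-Flox PBS replicate 4 and Pdp1 without Ppara-Flox LPS replicate 4 or PPARα-deficient LPS replicate 1. Pdk1, Pdk2 and Pdpr differences near 0 changed sign, and the cause was not tested. The Pdk2 interaction was 0.00425 with RLE, 0.00916 with upper-quartile factors, 0.00426 with DESeq2, 0.00606 with the stricter filter and 0.000144 with the number series. Pdk1 after LPS in PPARα-deficient hearts was -0.0263 with 2 LPS libraries left out. Leaving out single libraries gave ranges of -0.083 to 0.0298 (Pdk2, genotype under PBS), -0.0889 to 0.0218 (Pdk2, genotype under LPS), -0.334 to 0.0355 (Pdpr, LPS in Ppara-Flox) and -0.0245 to 0.121 (Pdk1, LPS in PPARα-deficient). For interactions they were -0.176 to 0.00264 (Pdk1), -0.0702 to 0.0622 (Pdk2) and -0.39 to 0.18 (Pdk4). With longest transcript lengths the Pdk4 share was 43.7% (PPARα-deficient PBS), 85.9% (Ppara-Flox LPS) and 74.98% (PPARα-deficient LPS), the Pdk2 share 11.7% (Ppara-Flox LPS), and in PPARα-deficient PBS the kinase sum was 452 CPM per kb and the ratio 38.6.

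The replicate number as a block left the counts of calls at 5, 6, 0, 0 and 0, changed no call of these genes and gave a Pdk2 interaction of 0.00216. Same-numbered libraries shared only a number, and 4 of 16 libraries correlated best with their own number. Depth limits Pdk3, at 8 to 83 read pairs per library if a pair counts as 4.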
